A study of Mus musculus with 6 samples.

Results

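The class A Eph receptors, the larger class of Eph receptor, were examined in fibroblasts grown from mouse embryos (MEFs), with and without the gene Atxn3. All probe sets whose annotation names only 1 Epha gene were taken. These were 24 of the 45037 probe sets on the array once controls were left out, and they stand for 9 of 18193 genes, Epha1, Epha2, Epha3, Epha4, Epha5, Epha6, Epha7, Epha8 and Epha10. RNA came from 3 samples of Atxn3-WT MEFs, which carry the intact gene, and 3 samples of Atxn3-KO MEFs, in which it is knocked out, and each sample was hybridised to 1 Affymetrix mouse genome array. Both groups grew in the same medium, and no drug treatment is given in the labels of the samples used for the arrays. The study describes the replicates as biological and the MEFs as cell lines of each genotype. It does not say whether the samples came from separate embryos or cultures. The spread behind each p-value is that among these 6 samples and could be technical. If each genotype is 1 cell line, a difference by genotype cannot be told apart from a difference between lines.

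Eph receptors are receptor tyrosine kinases that read contact between neighbouring cells. Their ligands, the ephrins, sit on the surface of the next cell, ephrin-A proteins held by a lipid anchor and ephrin-B proteins by a membrane-spanning segment, and class A receptors mostly bind the former and class B receptors the latter. A bound receptor clusters, is phosphorylated and acts on actin and on adhesion, while the ephrin can signal back into its own cell. Class A receptors are known best for repulsive guidance of axons and for the sorting of cells into separate territories in the embryo, and Epha2 also for its role in epithelia and tumours. Atxn3 encodes a deubiquitinating enzyme that the study examined as a repressor of transcription at the promoter of an Eph receptor gene. The study's text uses the symbol Efna3 both for ephrin-A3 and for Eph receptor A3, so which gene it means is ambiguous. In the annotation used here Epha3 is the receptor and Efna3 is the ligand ephrin-A3. The values of both genes are therefore given separately.

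Epha3 had the highest increase among the class A receptors in Atxn3-KO MEFs, with a log2 difference of 6.11, Epha1 rose by 1.98-fold, Epha2 rose slightly and Epha4 fell slightly. The remaining 5 genes, Epha5, Epha6, Epha7, Epha8 and Epha10, were not called at an adjusted p under 0.05 by the brightest of their probe sets. The 250 bases upstream of the annotated start of each of the 4 genes that passed are printed here from the RefSeq promoter table (build GRCm38.p6), because the study placed the control of the receptor gene at its promoter. Each runs 5′ to 3′ on the strand of its gene, and capitals mark CpG pairs, the bases at which mammalian DNA is mostly methylated.
Epha3, chr16:63864176-63864425, minus strand: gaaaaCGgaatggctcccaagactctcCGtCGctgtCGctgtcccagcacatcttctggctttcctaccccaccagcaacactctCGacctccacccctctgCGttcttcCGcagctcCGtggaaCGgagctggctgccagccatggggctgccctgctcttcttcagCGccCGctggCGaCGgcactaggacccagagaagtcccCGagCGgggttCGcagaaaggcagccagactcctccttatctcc
Epha1, chr6:42373269-42373518, minus strand: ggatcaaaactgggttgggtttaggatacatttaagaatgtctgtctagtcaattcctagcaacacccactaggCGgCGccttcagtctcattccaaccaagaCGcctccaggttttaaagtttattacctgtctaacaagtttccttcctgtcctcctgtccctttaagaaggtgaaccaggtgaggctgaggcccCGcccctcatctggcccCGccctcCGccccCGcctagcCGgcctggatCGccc
Epha2, chr4:141300971-141301220, plus strand: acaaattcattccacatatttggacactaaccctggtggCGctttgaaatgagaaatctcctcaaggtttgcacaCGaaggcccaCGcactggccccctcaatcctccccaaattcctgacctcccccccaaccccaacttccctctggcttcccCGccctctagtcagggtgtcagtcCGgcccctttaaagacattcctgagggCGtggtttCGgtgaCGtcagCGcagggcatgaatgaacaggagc
Epha4, chr1:77515089-77515338, minus strand: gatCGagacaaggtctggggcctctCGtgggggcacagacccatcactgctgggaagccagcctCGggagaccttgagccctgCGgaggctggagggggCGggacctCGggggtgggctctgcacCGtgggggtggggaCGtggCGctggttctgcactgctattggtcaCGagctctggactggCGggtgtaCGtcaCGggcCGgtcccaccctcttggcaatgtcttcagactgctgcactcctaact
The Epha3 window held 16 CpG pairs and 62.8% G or C, against a median of 6 CpG pairs and 52.4% over 32851 promoter windows of the same length, and 74.6% of these windows held fewer CpG pairs. The Epha4 window held 14 CpG pairs, and the Epha1 and Epha2 windows held 9 each. 3 short motifs were searched on both strands, the GC box GGGCGG, which itself contains a CpG pair, the TATA box TATAAA and the CCAAT box CCAAT. These occur in 32.7%, 12.4% and 33.8% of all the windows. The Epha1 window held 3 GC boxes, the Epha2 window 1, and the Epha4 window 1 GC box and 1 CCAAT box. The letters of these 3 motifs were not found in the Epha3 window, and no TATA box was found in any of the 4.

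The targeted gene was checked first. The brighter Atxn3 probe set (1434408_at) read 6.53, 6.81 and 6.66 on the log2 scale in Atxn3-WT MEFs and 3.60, 3.43 and 3.73 in Atxn3-KO MEFs, with replicates given in the order 1, 2 and 3 here and below. Its log2 fold change, which is the log2 difference of Atxn3-KO minus Atxn3-WT, was -3.08 (SE, the standard error of the limma fit, 0.096, adjusted p = 2.09e-06). All 3 Atxn3-KO samples were under the reference for a low level described next, so this fold change is not exact. The dimmer Atxn3 probe set (1440855_at) was under it on all 6 arrays, and read 4.25, 4.45 and 4.73 against 3.90, 4.28 and 4.21, so that the groups overlapped, with a log2 difference of -0.35 (adjusted p = 0.117). The sources used here do not say which stretch of Atxn3 was deleted, so whether either probe set falls within it is unknown. The files hold no detection calls, so 43 probe sets of olfactory receptor genes, which fibroblasts are not known to use, served as a reference for a low level. Their median ranged from 4.05 to 4.18 and their 95th percentile from 5.26 to 5.43 over the 6 arrays, and a probe set is called above the reference when it exceeds that 95th percentile on the same array. Levels of different probe sets are not ranked, since probe sets differ in how strongly they bind their target.

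Epha3 encodes a receptor that binds ephrin-A5 in particular and is known from embryonic tissues with migrating cells. Its brightest probe set, 1455426_at, read 4.86, 4.77 and 4.70 in Atxn3-WT MEFs and 10.91, 10.85 and 10.92 in Atxn3-KO MEFs. The lowest Atxn3-KO sample thus lay far above the highest Atxn3-WT sample. The means were 4.78 ± 0.077 (SD, n = 3) and 10.89 ± 0.040 (SD, n = 3), and the log2 fold change was 6.11 (SE 0.054, adjusted p = 1.71e-08, limma). Among probe sets that name 1 gene this was the value of rank 2, after Rpl39l with 6.29 (SE 0.077), and the order of the pair is not exact because both started from levels under the reference.

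Another Epha3 probe set, 1425575_at, read 3.45, 3.30 and 3.37 in Atxn3-WT MEFs and 9.37, 9.25 and 9.40 in Atxn3-KO MEFs, a log2 difference of 5.96 (SE 0.060). The probe set 1425574_at read 4.36, 4.16 and 4.38 against 8.48, 8.17 and 8.26, a log2 difference of 4.003 (SE 0.094). The groups of both are widely separated. The last, 1426057_a_at, read 4.08, 4.32 and 4.60 in Atxn3-WT MEFs and 5.70, 5.51 and 5.50 in Atxn3-KO MEFs, a log2 difference of 1.23 (SE 0.13, adjusted p = 4.89e-04, limma). Here the groups still did not overlap, but the Atxn3-KO samples lay just above the reference. On each of the 4 probe sets 0 of the 3 Atxn3-WT samples and all 3 Atxn3-KO samples were above it. A level under the reference has no exact value, so the fold changes of Epha3 are not exact either. In bulk RNA, more Epha3 per cell and more cells with Epha3 cannot be told apart.

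**Figure D1:**
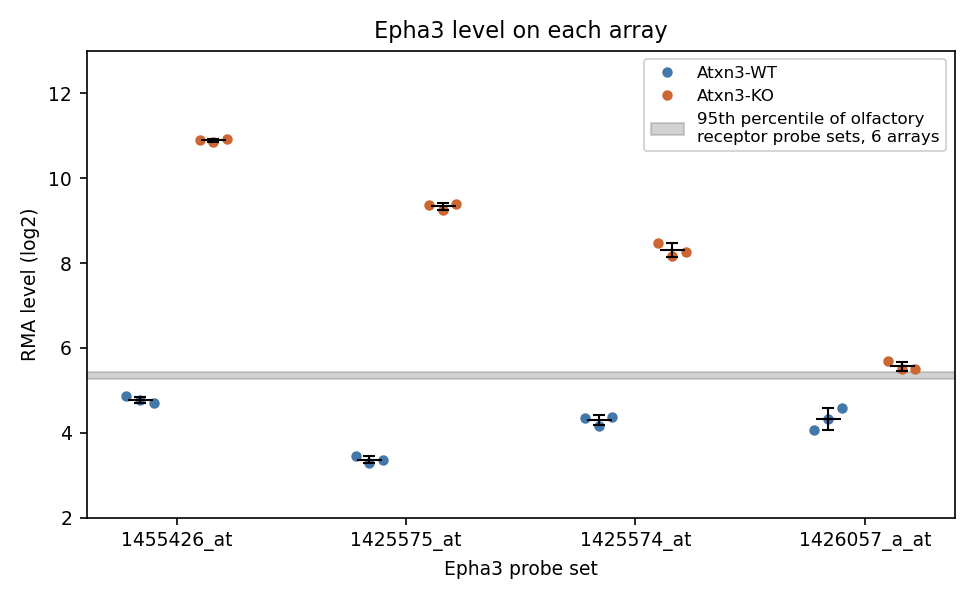
RMA level (log2, vertical axis) of the 4 Epha3 probe sets (horizontal axis) on each array, blue points for Atxn3-WT and orange points for Atxn3-KO, with the mean as a line and the SD as error bars (n = 3). The grey band spans the 95th percentile of the olfactory receptor probe sets over the 6 arrays, 5.26 to 5.43, and every Atxn3-WT point lies under it and every Atxn3-KO point above it.

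Epha1 encodes a receptor found mainly in epithelia. Its brightest probe set, 1422917_at, read 6.73, 6.85 and 6.58 in Atxn3-WT MEFs and 7.71, 7.71 and 7.71 in Atxn3-KO MEFs, all above the reference. The 3 Atxn3-KO samples were nearly equal and lay above every Atxn3-WT sample. The means were 6.72 ± 0.14 (SD, n = 3) and 7.71 ± 0.0024 (SD, n = 3), a log2 difference of 0.99 (SE 0.070, adjusted p = 8.59e-05, limma). The probe set 1432400_at read 3.58, 3.63 and 3.26 against 4.18, 4.30 and 4.06, with a log2 difference of 0.69 (SE 0.11, adjusted p = 0.00308), but was under the reference on all 6 arrays. The third, 1432399_a_at, read 5.27, 4.96 and 5.15 against 5.23, 5.29 and 5.43, so that the groups overlapped, with a log2 difference of 0.19 (adjusted p = 0.178). Epha1 therefore passed on 2 of its 3 probe sets.

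Epha2, a receptor active in epithelia and often abundant in cultured adherent cells, has 1 probe set on the array. It read 9.18, 9.29 and 9.26 in Atxn3-WT MEFs and 9.49, 9.49 and 9.50 in Atxn3-KO MEFs. Every sample was above the reference, and the groups did not overlap. The log2 fold change was 0.25 (SE 0.046, adjusted p = 0.00637, limma), with a 95% interval from 0.14 to 0.36.

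Epha4 is the class A receptor that also binds ephrin-B ligands, with a well known role in guiding motor axons. Its brightest probe set, 1421929_at, read 6.59, 6.54 and 6.55 in Atxn3-WT MEFs and 6.08, 6.26 and 6.09 in Atxn3-KO MEFs, a log2 difference of -0.42 (SE 0.058, adjusted p = 0.00191, limma). The probe set 1429021_at read 5.97, 5.96 and 5.99 against 5.43, 5.59 and 5.77, a log2 difference of -0.38 (SE 0.083, adjusted p = 0.0141). On both, all 3 Atxn3-KO samples lay below all 3 Atxn3-WT samples. The third, 1421928_at, read 5.91, 6.07 and 5.86 against 5.68, 5.76 and 5.76, with a log2 difference of -0.21 (SE 0.064, adjusted p = 0.0472, limma). That last call was lost under most of the alternatives tried, with adjusted p-values up to 0.133, among them the removal of any single sample other than Atxn3-WT replicate 3. The remaining pair, 1439757_s_at and 1456863_at, had log2 fold changes of -0.14 (adjusted p = 0.227) and -0.03 (adjusted p = 0.794) and were under the reference on every array.

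Epha5, Epha6 and Epha7 were under the reference on every array. Epha5, which guides axons in the visual and limbic systems, had 4 probe sets. Of these, 1444690_at read 3.78, 3.99 and 3.71 in Atxn3-WT MEFs and 3.59, 3.55 and 3.58 in Atxn3-KO MEFs, a log2 difference of -0.26 (SE 0.074, adjusted p = 0.0415, limma), and this call was lost when any single sample other than Atxn3-WT replicate 3 was removed (adjusted p up to 0.110). The other 3 had log2 fold changes from -0.11 to 0.04, and the brightest, 1420557_at, gave -0.11 (adjusted p = 0.236) with groups that did not overlap. Epha6, a brain-enriched receptor, read 3.25, 3.45 and 3.42 against 3.48, 3.57 and 3.41, with a log2 difference of 0.11 (adjusted p = 0.290).

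Epha7, a receptor of the developing cortex, had 4 probe sets with log2 fold changes from 0.02 to 0.31, and 0 of them passed an adjusted p of 0.05. On 1451991_at the Atxn3-WT samples read 4.06, 4.10 and 4.10 and the Atxn3-KO samples 4.60, 4.03 and 4.55, so that Atxn3-KO replicate 2 lay with the Atxn3-WT samples and the others above them. Its log2 fold change was 0.31 (adjusted p = 0.158, limma), and 0.49 (adjusted p = 0.00154) without Atxn3-KO replicate 2. The probe set 1443485_at had 0.19 (adjusted p = 0.103), and 0.25 (adjusted p = 0.0455) without Atxn3-WT replicate 3. Epha8 read 5.28, 5.61 and 5.25 against 5.42, 5.49 and 5.31, a log2 difference of 0.03 (adjusted p = 0.879), and lay above the reference on 2 of 3 arrays in each group. Epha10, a receptor whose kinase domain is thought to be inactive, read 5.88, 6.15 and 6.12 in Atxn3-WT MEFs and 6.07, 6.59 and 6.01 in Atxn3-KO MEFs. All its samples were above the reference and the groups overlapped, with a log2 difference of 0.18 (SE 0.15, adjusted p = 0.472) and a 95% interval from -0.19 to 0.54.

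**Figure D2:**
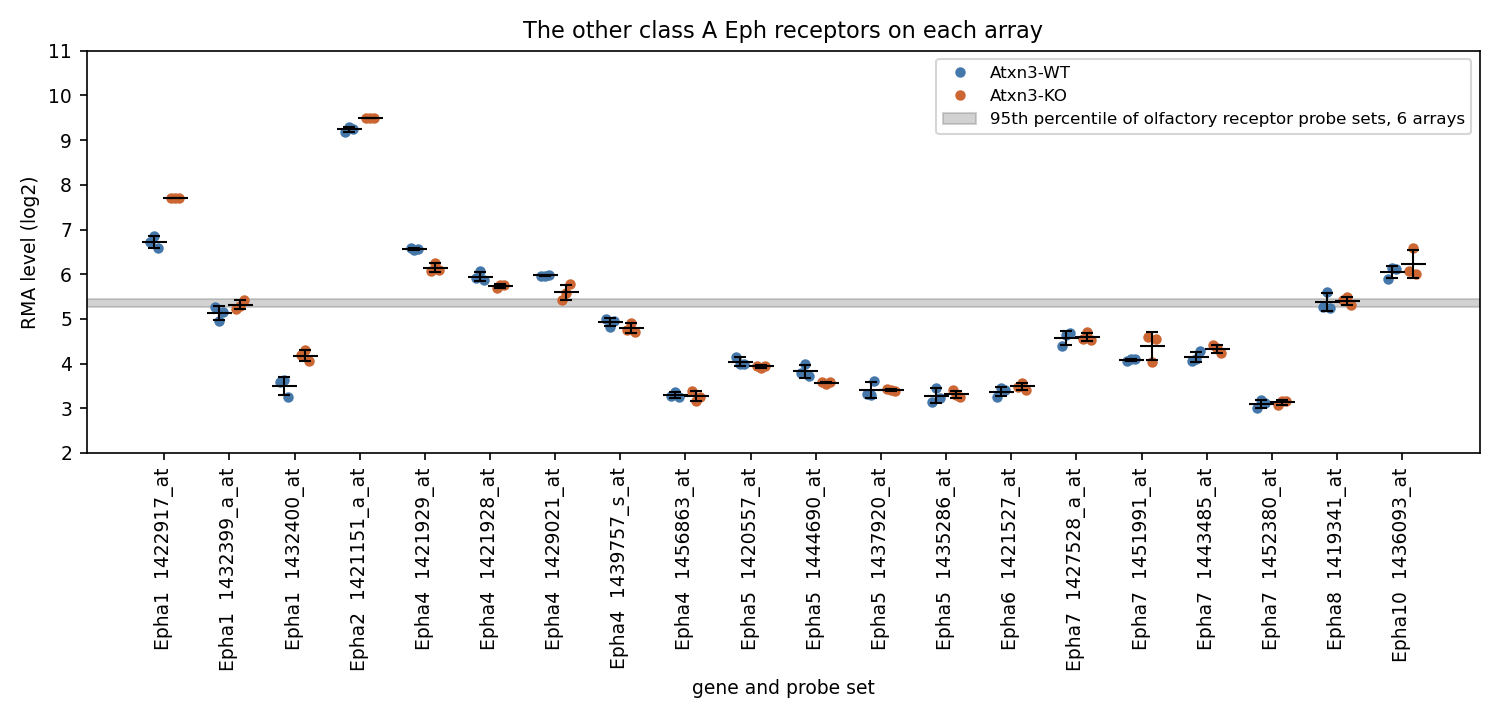
RMA level (log2, vertical axis) of the 20 probe sets of the other class A Eph receptors (horizontal axis) on each array, with the mean as a line and the SD as error bars (n = 3 per genotype). The grey band is the 95th percentile of the olfactory receptor probe sets, 5.26 to 5.43, and Epha2, the brightest probe sets of Epha1 and Epha4, and Epha10 lie above it in both genotypes, while all probe sets of Epha5, Epha6 and Epha7 lie under it.

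By the brightest probe set of each gene, 4 of the 9 receptors were above the reference on all 3 Atxn3-WT arrays, Epha1, Epha2, Epha4 and Epha10, and 5 on all 3 Atxn3-KO arrays, where Epha3 joined them. The first count depends on the reference, since 7 of 9 genes were above the 25th percentile of all probe sets on every Atxn3-WT array. At an adjusted p under 0.05, 7 of the 24 probe sets were higher in Atxn3-KO MEFs and 4 were lower, against 12.5% of all probe sets higher and 13.5% lower. Of the 9 genes 3 were higher and 1 was lower, against 17.1% and 14.7% of all genes. At the thresholds set in the methods, which ask for a change of 2-fold or more and an adjusted p no higher than 0.001, the 4 Epha3 probe sets were higher and 0 members were lower, against 0.795% of all probe sets higher and 0.515% lower. The groups did not overlap for 7 members that were higher and 5 that were lower, against 41.1% of all probe sets in either direction. With Epha3 set aside, 3 of 20 probe sets rose, 4 fell and 13 did not pass, shares of 15% and 20% for the called ones. Their median log2 fold change was 0.03, against -0.01 over all probe sets, and their range ran from -0.42 to 0.99.

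**Figure D3:**
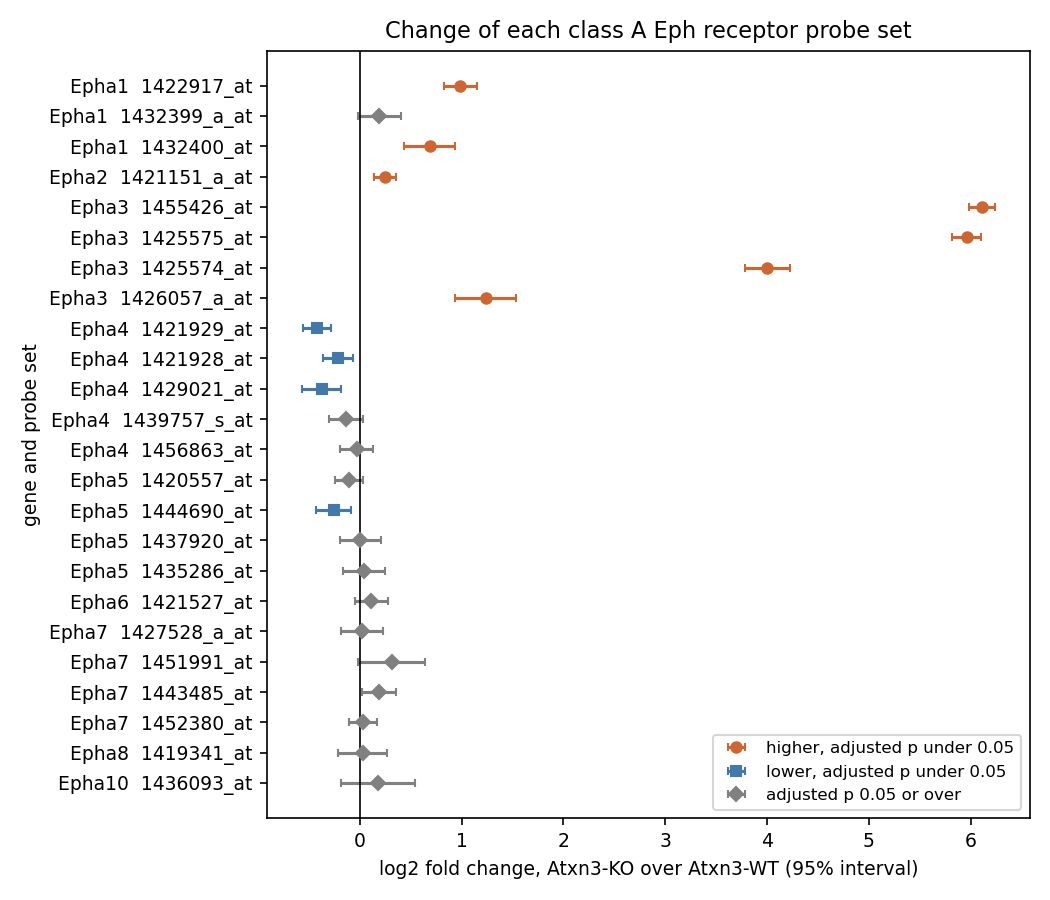
Log2 fold change, Atxn3-KO over Atxn3-WT (horizontal axis), of each of the 24 class A Eph receptor probe sets (vertical axis), with 95% intervals from limma. Orange circles are higher and blue squares lower at an adjusted p under 0.05, grey diamonds did not pass, and outside Epha3 the values run from -0.42 to 0.99, while the Epha3 values are 6.11, 5.96, 4.003 and 1.23.

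Whether another class A receptor fell as Epha3 rose was compared gene by gene. Epha4 was the only one of the other 8 whose brightest probe set passed as lower, and it fell by 0.42 on the log2 scale, against a rise of 6.11 for Epha3. Among the genes above the reference in Atxn3-WT MEFs, Epha1 and Epha2 moved the same way as Epha3, and Epha10 did not pass the test. These arrays measure RNA, and receptor protein or its phosphorylation was not analysed here.

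The ephrin-A ligands were all above the reference in both genotypes, and 2 of the 5 rose while 1 fell, where 17.1% of all genes were higher and 14.7% lower. Efna1, an ephrin known from blood vessels and as a partner of Epha2, read 8.61, 8.56 and 8.60 in Atxn3-WT MEFs and 9.02, 9.04 and 9.08 in Atxn3-KO MEFs, a log2 difference of 0.46 (SE 0.042, adjusted p = 2.93e-04, limma). Its other probe set gave 0.42. Efna5, a high-affinity partner of Epha3, moved the other way. It read 9.37, 9.27 and 9.30 against 8.58, 8.59 and 8.51, a log2 difference of -0.76 (SE 0.049, adjusted p = 6.01e-05), while its dimmer probe set gave -0.24 (adjusted p = 0.130). Efna4 had 0.22 (adjusted p = 0.0444), a call that was lost without any single sample other than Atxn3-KO replicate 1 (adjusted p up to 0.133). Efna2 did not pass, with 0.10 (adjusted p = 0.169).

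Efna3, the ligand ephrin-A3, did not share the increase of Epha3. Its brighter probe set, 1431170_at, read 8.43, 8.36 and 8.41 in Atxn3-WT MEFs and 8.49, 8.43 and 8.35 in Atxn3-KO MEFs. The groups overlapped, and the log2 fold change was 0.02 (adjusted p = 0.779, limma), with a 95% interval from -0.10 to 0.14. Its dimmer probe set, 1455344_at, read 6.90, 6.87 and 6.91 against 6.64, 6.60 and 6.70, a log2 difference of -0.24 (adjusted p = 0.00690).

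Of the 4 class B receptors measured, 2 rose and 1 fell, beside the same 17.1% and 14.7% of all genes. With the filter on low values 1 rose, because the filter removed Ephb6 before the fit. Ephb6, a receptor without kinase activity, read 5.28, 5.29 and 5.40 in Atxn3-WT MEFs and 6.21, 6.30 and 6.36 in Atxn3-KO MEFs. Its log2 fold change was 0.96 (SE 0.059, adjusted p = 4.36e-05, limma), and it was above the reference on 1 of 3 Atxn3-WT arrays and on all 3 Atxn3-KO arrays. Ephb3, a receptor of the gut and of developing nerve tracts, had 0.52 (adjusted p = 2.09e-04), and Ephb4, the venous partner of ephrin-B2, had -0.26 (adjusted p = 0.00842). Ephb1 did not pass, with 0.07 (adjusted p = 0.560), and Ephb2 was not analysed here. Among the 3 ephrin-B ligands, 1 rose, Efnb2, with a log2 difference of 0.25 (adjusted p = 0.00753). By their brightest probe sets Efnb1 had 0.14 (adjusted p = 0.0612) and Efnb3 -0.03 (adjusted p = 0.809). That Efnb1 probe set passed with the filter on low values (adjusted p = 0.0162) and with an intensity trend in the variance (adjusted p = 0.0455), which made the count of higher ephrin-B genes 2. Another Efnb1 probe set, 1418285_at, had 0.27 (adjusted p = 0.0511) and passed under 4 of the alternatives, with adjusted p-values down to 0.0114. A dimmer Efnb1 probe set had 0.26 (adjusted p = 0.0367), a call that was lost without any single sample other than Atxn3-KO replicate 2 (adjusted p up to 0.112).

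**Figure D4:**
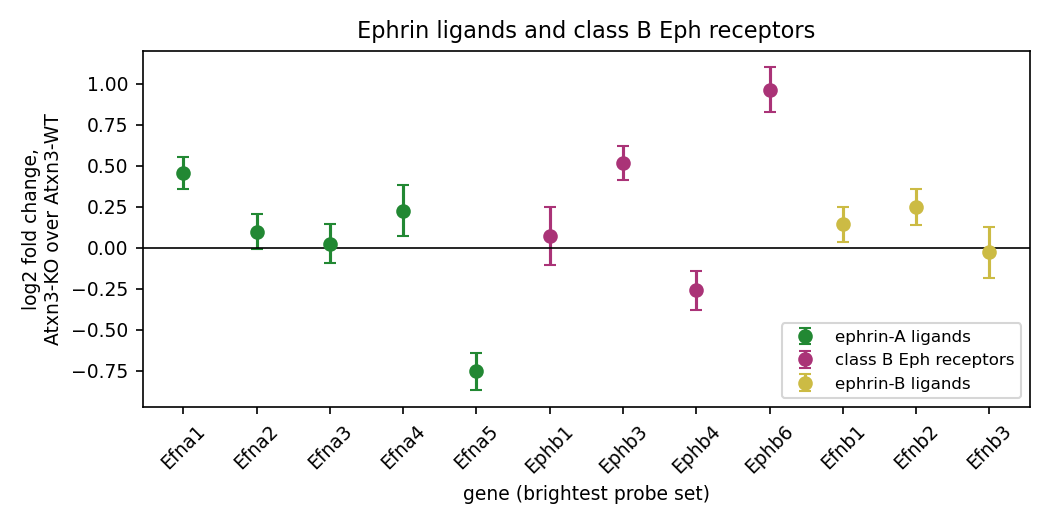
Log2 fold change, Atxn3-KO over Atxn3-WT (vertical axis), of the brightest probe set of each ephrin ligand and class B Eph receptor measured (horizontal axis), with 95% intervals from limma. Efna5 is the lowest at -0.76 and Ephb6 the highest at 0.96, and Efna3, the ligand, is at 0.02.

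The genes that carry or end the signal of an Eph receptor inside the cell moved in both directions. Of 21 adaptors and kinases that bind Eph receptors, 4 rose, 5 fell and 12 did not pass, against 17.1% of all genes higher and 14.7% lower, with a median log2 fold change of -0.03 against 0.0021 over all genes. The count of those that fell was 8 with the filter on low values and 8 with the intensity trend. Pik3r1, the regulatory subunit of phosphoinositide 3-kinase, had a log2 difference of 0.52 (adjusted p = 1.27e-04, limma), and Abl2, a kinase of the Abl family, had -0.40 (adjusted p = 9.60e-04). The adaptors Crkl and Grb10 had 0.25 (adjusted p = 0.00719) and -0.22 (adjusted p = 0.00678). These counts rest on the brightest probe set of each gene, by which Crk, Nck1 and Grb2 did not pass. Dimmer probe sets of Crk and Nck1 passed as lower, with -0.50 (adjusted p = 0.00242, limma) and -0.38 (adjusted p = 0.00112). A dimmer Grb2 probe set passed as higher, with 0.23 (adjusted p = 0.00971), while its brightest had -0.13. Of 13 phosphatases, ubiquitin ligases and proteases that end Eph signaling, 1 rose, 4 fell and 8 did not pass, against the same 17.1% and 14.7%, with a median of -0.07. The count of those that fell was 2 with the replicate block, 2 with median centring, and 2 without Atxn3-KO replicate 2 or without Atxn3-WT replicate 2 or 3, and the count of those that rose was 2 with the intensity trend. Ptprf, a receptor tyrosine phosphatase, had -0.52 (adjusted p = 2.21e-04), the sheddase Adam17 -0.28 (adjusted p = 0.00275) and the membrane protease Mmp14 0.25 (adjusted p = 0.00431). Ptpn12, a cytoplasmic tyrosine phosphatase, had -0.19 (adjusted p = 0.0391), a call that was lost without Atxn3-KO replicate 1 or 2 or Atxn3-WT replicate 2 or 3 (adjusted p up to 0.123). Lyn and Ptk2 belong to these lists and were not analysed here.

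The study blotted several regulators of histone acetylation as proteins. It reported less HDAC3 and NCoR protein in Atxn3-KO cells, and no difference for p300, PCAF and HDAC6. The values here are RNA and do not measure those proteins. The genes of those regulators that could be read here as RNA are Hdac3, Hdac6, Kat2b and Ep300, and Crebbp, which encodes a further acetyltransferase, was added to them. At an adjusted p under 0.05, 0 of the 5 were higher and 0 were lower by limma, against 17.1% and 14.7% of all genes. A list of 5 is too short to tell its count from those shares. Crebbp alone had an unadjusted p under 0.05. Hdac3, a histone deacetylase, read 11.25, 11.33 and 11.38 in Atxn3-WT MEFs and 11.29, 11.30 and 11.33 in Atxn3-KO MEFs, so that the groups overlapped, with a log2 difference of -0.01 (adjusted p = 0.895) and a 95% interval from -0.13 to 0.10. The deacetylase Hdac6 had -0.07 (adjusted p = 0.347), and the acetyltransferases Kat2b, Ep300 and Crebbp had 0.09 (adjusted p = 0.150), 0.06 (adjusted p = 0.475) and 0.19 (adjusted p = 0.0584). Crebbp and Kat2b passed under some of the alternatives tried, with adjusted p-values down to 0.00418 and 0.0224. Ncor1 was not analysed here.

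Epha3 and Epha6 lie on chromosome 16, with 3 measured genes between them, and the neighbours of Epha3 did not share its increase. Over the 12 measured genes on each side of Epha3, log2 fold changes ranged from -0.25 to 0.29 with a median of -0.02. Of the 24, 0 passed the thresholds set in the methods, where 0.795% of all probe sets were higher and 0.515% lower. Pros1, the anticoagulant protein S, is next to Epha3 on the side of Epha6 and read 9.26, 9.22 and 9.25 against 9.21, 9.28 and 9.25, a log2 difference of 0.0058 (adjusted p = 0.942, limma). Stx19 and Nsun3, the other genes between the receptors, had -0.02 and 0.13. On the far side, 4930453N24Rik and Zfp654 had -0.03 and -0.02. At an adjusted p under 0.05, 17.1% of all genes were higher and 14.7% lower. Of the 24 neighbours, 3 were higher, Cldnd1 (0.29), Chmp2b (0.19) and Robo1 (0.23), and 1 was lower, 4930461C15Rik (-0.21). The count of higher genes was 1 without Atxn3-WT replicate 1, and the count of lower genes was 0 without Atxn3-KO replicate 2 or Atxn3-WT replicate 3.

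**Figure D5:**
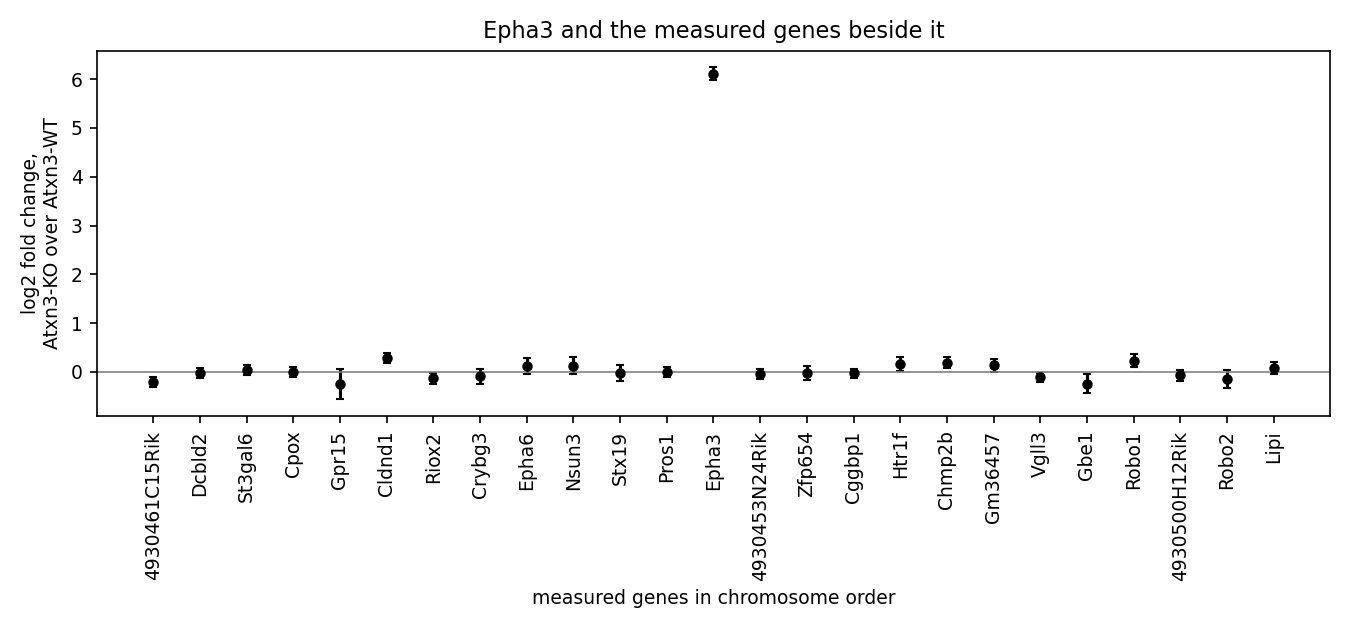
Log2 fold change, Atxn3-KO over Atxn3-WT (vertical axis), of Epha3 and the 12 measured genes on each side of it on chromosome 16, in chromosome order (horizontal axis), with 95% intervals from limma. Epha3 is at 6.11 and the 24 others lie between -0.25 and 0.29.

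The genes whose levels followed Epha3 most closely were sought among 361 genes with a change of at least 2-fold. Over the 6 samples the highest Pearson correlations with 1455426_at were those of Rpgrip1, Phka2, Fabp7, Cxcl12 and Rpl39l, from 0.9997 to 0.9998. Their log2 fold changes were 3.68, 1.06, 2.85, 1.26 and 6.29. The samples fall into their 2 genotypes, so such a correlation mostly restates the difference between the groups, and it is given as a description.

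Markers of the labelled cell type were mostly present. Of 13 fibroblast markers, 11 were above the reference on all arrays of each genotype. Lum, which encodes lumican, was among those that were not, with 3.54, 3.75 and 3.80 in Atxn3-WT MEFs and 4.11, 4.61 and 4.18 in Atxn3-KO MEFs. 4 of the 13 rose and 6 fell in Atxn3-KO MEFs, where 17.1% of all genes were higher and 14.7% lower, shares that stand beside the counts of the other markers too. Their mean level ranged from 11.09 to 11.11 in Atxn3-WT MEFs and from 10.82 to 10.86 in Atxn3-KO MEFs. Thy1, a surface glycoprotein of fibroblasts and neurons, fell most, with a log2 difference of -4.21 (SE 0.052). Prrx1 rose most among these markers, with 1.11 (SE 0.044). Among 12 neural markers 2 rose, 3 fell and 7 did not pass. Their mean level ranged from 6.14 to 6.23 in Atxn3-WT MEFs and from 6.07 to 6.11 in Atxn3-KO MEFs. Map2 rose by 1.55 on the log2 scale, and Sox2, under the reference on every array, by 0.25. Tubb3, Mbp and Nes had -0.95, -0.98 and -0.51. Among 8 epithelial markers 2 rose and 0 fell, and their mean level ranged from 5.70 to 5.79 and from 5.95 to 6.06. Krt18, a keratin of simple epithelia, had a log2 difference of 1.27 and Epcam, an epithelial adhesion molecule, 0.38. Krt18 was under the reference on all 3 Atxn3-WT arrays, so its fold change is not exact. The other 6 epithelial markers did not pass. Of 8 endothelial and 8 macrophage markers 0 passed in either direction, and of 7 markers of muscle precursors 1 fell. The part of these differences in the values of Epha3, Epha1 and the other receptors was not tested.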

How the data were processed

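MEF RNA of 2 genotypes, 3 Atxn3-WT samples and 3 Atxn3-KO samples as their labels give them, was measured on Affymetrix mouse genome arrays, with 250 ng of RNA labelled per sample. The authors deposited log2 values, which their methods and processing notes describe as normalized by RMA (background correction, quantile normalization and summary of each probe set), with no version given. RMA makes the arrays alike in distribution, so a shift common to all genes is removed. Of 45101 probe sets, 64 controls were left out. Of the others, 34945 name 1 gene, 932 several and 9160 none in the platform annotation.

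limma 3.58.1 in R 4.3.3 was used to fit the difference between genotypes (Atxn3-KO minus Atxn3-WT), with all arrays weighted alike because the study names a weighted model without its weights. No filter on low values was set, and Benjamini-Hochberg adjustment of p-values ran over all 45037 probe sets. A gene is represented by its probe set with the highest mean level over the 6 arrays. The fit was tested on simulated data. Other settings tried were a filter on low values, array weights, further normalization, a block for the replicate number, other variance models, other probe set rules and leaving out each sample.

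The members and the gene lists were chosen with earlier results of these data known. Named genes were all class A receptors with every probe set, Atxn3, Efna3, the partner genes past an adjusted p of 0.05, up to 4 per other list with the largest change past it, the histone acetylation genes, the nearest neighbours of Epha3 and the 5 most correlated genes. Efna2, Ephb1, Efnb1, Efnb3, Nsun3, Cldnd1, Chmp2b, Robo1, 4930461C15Rik, Lum, Thy1, Krt18 and Epcam were named after their values were seen. So were Crk, Nck1, Grb2, Prrx1, Map2, Sox2, Tubb3, Mbp and Nes. A further gene list is not reported here. The number of arrays limits the precision.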

Additional observations from a re-analysis of the deposited data

How the results depend on the processing

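Over 295 values of the class A receptor probe sets under the alternatives, 261 kept direction and call, 17 lost the call (Epha4 1421928_at and Epha5 1444690_at), 2 gained it (Epha7) and 15 of probe sets that were never called changed sign. The log2 fold changes of Epha3 stayed within 6.08 to 6.15, 5.93 to 6.01, 3.91 to 4.07 and 1.11 to 1.37. Class A probe sets called lower numbered 4, and 1 with the filter on low values, 2 with the replicate block and 2 to 4 with a sample left out. Class A genes called lower numbered 2 with the probe set of largest variance. The replicate numbers did not pair the samples (correlations of same-numbered deviations 0.10, -0.07 and -0.01), and the replicate block called 4814 probe sets higher and 4987 lower against 5627 and 6069. Against a 2-fold change limma's treat called 165 probe sets higher and 113 lower at an adjusted p of 0.05. The thresholds of the methods, with an adjusted p of 0.001, called 358 and 232. Genes above the reference in Atxn3-WT MEFs numbered 7 with the 25th percentile of the array. Neighbours of Epha3 called lower numbered 2 with array weights, 3 with the filter, 3 with the intensity trend and 0 to 1 with a sample left out, and those called higher 1 to 3. With a sample left out, the log2 fold changes that crossed 0 ranged from -0.090 to 0.021 (Epha4 1456863_at), -0.051 to 0.11 (Epha5 1437920_at), -0.033 to 0.13 (Epha5 1435286_at), -0.068 to 0.073 (Epha7 1427528_a_at), -0.013 to 0.075 (Epha7 1452380_at), -0.035 to 0.14 (Epha8), -0.0063 to 0.28 (Epha10), -0.0080 to 0.060 (Efna3), -0.083 to 0.036 (Efnb3), -0.049 to 0.018 (Hdac3), -0.011 to 0.023 (Pros1), -0.064 to 0.036 (Stx19) and -0.050 to 0.038 (Zfp654). Epha5 1437920_at was -0.017 with array weights, and Hdac3 was 0.00062 with median centring. Of 630 such values of the other named genes, 576 kept direction and call. Crk, Nck1, Grb2, Prrx1, Map2, Sox2, Tubb3, Mbp and Nes were not among these genes. No probe set names an Epha gene beside others, so that alternative gave no value, and levels under the reference limit the fold changes of Epha3. The causes were not tested.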
